A study of Mus musculus with 8 samples.

Results

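Cells with a high integrated stress response (ISR) score were taken from 37 °C cultures of SN4741, a mouse line that GEO labels as wild-type neural precursor cells. For each cell the share of UMIs (unique molecular identifiers, which count captured mRNA molecules) from 4 genes, Ddit3, Trib3, Chac1 and Asns, was computed, and the 10% of cells with the highest share in each library were called ISR-high. These were 788 of the 7882 cells kept at 37 °C, from 16015 kept in the whole series. The comparison set was the 3940 cells in the lower 50% of their own library by the same share, called ISR-low below. Kept cells had at least 5000 UMIs, 200 to 6000 detected genes and at most 15% of UMIs from mitochondrial genes. The share itself chose the cells, so levels of the 4 score genes are given as a description, and tests were run on the other genes.

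The ISR is a shared answer to several stresses. Kinases that sense endoplasmic reticulum (ER) stress (Eif2ak3, known as PERK), lack of amino acids (Eif2ak4, GCN2), double-stranded RNA (Eif2ak2, PKR) or heme shortage and mitochondrial stress (Eif2ak1, HRI) phosphorylate the initiation factor eIF2, which lowers translation in general while translation of the transcription factor ATF4 rises. ATF4 and its partners then switch on genes for amino acid synthesis, amino acid uptake, tRNA charging and, when stress persists, cell death. Of the score genes, Ddit3 encodes the transcription factor CHOP, Trib3 a pseudokinase that restrains ATF4 and CHOP, Chac1 an enzyme that degrades glutathione, and Asns asparagine synthetase.

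The series holds 4 libraries of cells at 37 °C and 4 at 39 °C. The 37 °C cells grew in high glucose medium with 10% fetal bovine serum. The 39 °C cells were moved, 24 h after passage, to medium with 0.5% serum for 48 h, the condition used to induce differentiation, so temperature and serum cannot be told apart. The line was immortalised with a temperature-sensitive viral T antigen meant to lose activity at the higher temperature, and it is described as polyploid and genetically unstable. Cells were trypsinized and captured with the Chromium 3′ V3 kit. The labels do not say that the replicates were separate cultures, so p-values speak only for these libraries. Those of the main edgeR gene tests at each temperature rest on a spread estimated across genes, not on each gene's own spread between libraries.

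The 4 libraries at 37 °C kept 1599 to 2398 cells each, with medians of 10545 to 15753 UMIs per cell, and gave 218, 160, 170 and 240 ISR-high cells. UMIs summed over the ISR-high cells of a library came to 2628780 to 2748010, against 12523517 to 13934242 for the ISR-low cells. At most 4 barcodes were shared by any pair of the 8 libraries (28 pairs). Of the progenitor markers, Nes, Sox2, Vim and Hes1 were detected in the ISR-high cells and Pax6, Fabp7, Hes5 and Msi1 were at 0 UMIs. The summed level of the 4 tested markers was 5923 to 6262 CPM (UMIs per 1000000 UMIs) in the ISR-high and 5811 to 6076 CPM in the ISR-low cells. Vim made up most of it, with 58319 UMIs in the ISR-high cells against 5229 for Nes, 1166 for Hes1 and 570 for Sox2. Of 8 neuronal markers, 4 were at 0 in the ISR-high cells (Snap25, Dcx, Elavl4 and Syt1), as were 5 of 8 glial markers (Gfap, Aqp4, Olig1, Olig2 and Sox10) and 5 of 10 immune, endothelial and blood markers (Ptprc, Cd3e, Cdh5, Kdr and Hbb-bs). Summed levels cover only the markers with enough counts to be tested. They were 167 to 207 CPM against 160 to 189 for 3 neuronal markers and 6.49 to 10.2 against 6.03 to 8.47 for 3 glial markers. For 4 immune, endothelial and blood markers they were 18.9 to 29.1 against 16.5 to 20.6.

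A CCAAT-enhancer-binding protein/ATF response element (CARE) is the DNA motif that ATF4 dimers recognise, and its core was searched as TGATGNAA on both strands of RefSeq promoter windows (GRCm38.p6, from 250 bases before to 50 bases after the start). Of all 32851 windows 3.97% held the letters. Among the score genes, Asns, Chac1 and Trib3 held them and Ddit3 did not. The windows reach only 250 bases before the start, so a site of Ddit3 further upstream would not have been seen. The stretches are shown 5′ to 3′ on the gene's strand to place the score in sequence, with the match in capitals.
Chac1, chr2:119351028-119351077, + strand, match 193 bases before the start: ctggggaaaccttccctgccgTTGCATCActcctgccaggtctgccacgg
Asns, chr6:7693210-7693259, − strand, match 23 bases before the start: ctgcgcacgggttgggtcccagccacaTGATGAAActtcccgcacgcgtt
Trib3, chr2:152344028-152344057, − strand, match 14 bases after the start: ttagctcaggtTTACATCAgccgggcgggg

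Ddit3 and Asns made up most of the score. Ddit3 (chromosome 10, 127290774 to 127296288, + strand) stood at 166, 135, 159 and 154 CPM in the ISR-high cells of replicates 1 to 4 and at 5.61, 8.30, 8.97 and 5.08 CPM in the ISR-low cells. Asns (chromosome 6, 7675169 to 7693254, − strand) stood at 126, 135, 110 and 160 CPM in the ISR-high cells. Both genes were of similar weight in the sum, and replicate 4 was highest for Asns. Trib3 (chromosome 2, 152337422 to 152344032, − strand) stood at 13.1, 16.9, 16.0 and 8.98 CPM, lowest in the replicate where Asns was highest. Chac1 (chromosome 2, 119351229 to 119354381, + strand) stood at 17.5, 27.5, 32.0 and 27.3 CPM and was lowest in replicate 1. The 4 genes together came to 322, 314, 316 and 350 CPM in the ISR-high cells, 119, 117, 122 and 134 CPM in the cells between the sets, and 12.3, 18, 22.8 and 14.0 CPM in the ISR-low cells, values that the choice of cells fixes. At its 3′ end Ddit3 overlaps Mars on the opposite strand, and whether the counting used strand is not given in the sources used here.

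**Figure D1:**
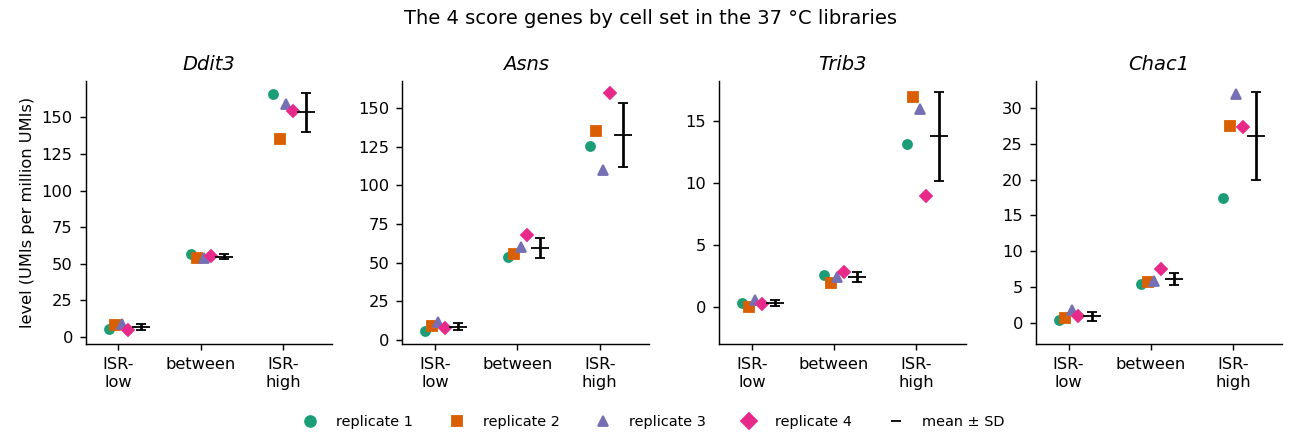
Levels of Ddit3, Asns, Trib3 and Chac1 in CPM in the ISR-low cells, the cells between and the ISR-high cells of each 37 °C library, with the mean ± SD over the 4 libraries beside the points. The 3 sets are ordered by construction, and each gene's 4 libraries lie close together except for Trib3 and Chac1 in the ISR-high cells.

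The score rests on few molecules per cell. The kept cells of the libraries held 1.15, 1.46, 1.51 and 1.12 score UMIs per cell on average, and 42.4, 36.6, 32.6 and 42.2% of cells held none. The ISR-high cells held a median of 3, 5, 4 and 3. The last cell inside and the first cell outside the ISR-high set had shares of 2.13333 and 2.13061 per 10000 UMIs in replicate 1, 2.0605 and 2.0603 in replicate 2, 2.11004 and 2.10748 in replicate 3, and 2.3499 and 2.34962 in replicate 4, so there was no gap at the limit. In 35.8, 28.1, 28.8 and 38.8% of the ISR-high cells only 1 of the 4 genes was detected, and in 3.67, 6.25, 5.29 and 2.92% all 4 were. When each cell's score UMIs were split at random into 2 parts and the cells were chosen on 1 part alone, the other part stood at 172, 179, 193 and 165 CPM in the chosen cells and 69.1, 69.9, 74.8 and 82.2 CPM in the cells with the lowest share. The part that chose the cells gave 412, 383, 377 and 441 CPM against 0, so the contrast was smaller in the part that did not choose the cells.

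Each score gene was also tested with cells chosen on the other 3. Chosen without it, Trib3 stood at 9.20, 13.6, 11.3 and 5.16 CPM in the high cells and 1.34, 0.562, 1.36 and 1.33 CPM in the low cells, a log2 fold change of 3.05 (adjusted p = 6.29e-30, edgeR). Chac1 stood at 12.1, 13.8, 15.1 and 13.7 against 3.16, 3.66, 5.93 and 3.65 CPM, a log2 fold change of 1.74 (adjusted p = 3.24e-15, edgeR). The high and the low cells did not overlap for either gene. Ddit3 stood at 58.3, 57.0, 52.7 and 40.8 against 42.6, 40.1, 41.9 and 41.3 CPM, higher in 3 of 4 libraries, with a log2 fold change of 0.33 (adjusted p = 1.27e-04, edgeR). Asns stood at 45.6, 52.8, 47.5 and 61.3 against 36.9, 38.1, 41.3 and 47.2 CPM, higher in 4 of 4, with a log2 fold change of 0.34 (adjusted p = 6.03e-04, edgeR). Both of these small differences lost their call when the top 20% of cells were taken (0.13 for Ddit3 and 0.15 for Asns) and when every cell was thinned to 5000 UMIs (0.19 and 0.20).

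Outside the score, ISR-high cells carried more mRNA of other ISR genes at 37 °C. Sums of UMIs per library and set went into edgeR's quasi-likelihood test, the library being a block, with Benjamini-Hochberg adjustment over 13999 genes. At an adjusted p under 0.05, 228 genes were higher (1.63% of those tested) and 241 were lower (1.72%), and 1905 had an unadjusted p under 0.05. With DESeq2's size factors (RLE) in place of TMM the split was 273 higher and 168 lower, and with library totals alone 276 and 180. The lower genes numbered 125, 147 and 133 without replicate 1, 2 or 3. The median log2 fold change of all genes was −0.02. Of 79 tested genes in 6 lists of the ISR, 36 were higher and 0 lower, with a median log2 fold change of 0.30. After every cell was thinned to 5000 UMIs 12 of the 79 were higher and 0 lower. Of 87 called genes chosen for naming, 60 then lost the call, 8 of them among the 20 named by size (Herpud1, Pck2, Sfrp1, Wnt6, Fgfrl1, Irx5, Ccnb1 and Flrt2). These lists were drawn up with results of these data known, so their direction is not independent evidence. The log2 fold changes below are followed by the SD of the 4 libraries' own log2 differences. Where the 2 sets are said not to overlap, this describes chosen genes, and its share over all tested genes is not given.

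Of 7 transcription factors of the ISR 5 were higher and 0 lower, and 3 were higher by DESeq2. Atf5 (chromosome 7, 44812256 to 44816658, − strand), a factor tied to the mitochondrial stress response, stood at 74.9, 76.3, 74.9 and 62.3 CPM in the ISR-high and 26.3, 31.6, 29.6 and 35.3 CPM in the ISR-low cells, the largest rise among the genes named by size (log2 fold change 1.23, SD 0.29, adjusted p = 4.62e-59, edgeR). Every ISR-high value was above every ISR-low one, and the contrast was narrowest in replicate 4. Nupr1 (chromosome 7, 126623249 to 126630861, − strand), a small stress-induced chromatin protein, stood at 112, 134, 123 and 132 against 65.6, 61.3, 62.2 and 67.6 CPM (0.96, SD 0.14, adjusted p = 9.01e-59). Atf4 mRNA itself stood at 169, 183, 180 and 190 against 114, 107, 125 and 129 CPM (0.60, SD 0.12, adjusted p = 7.48e-32). Cebpg, a dimer partner of ATF4, rose by 0.31 (adjusted p = 0.00448) but did not pass when replicate 2 was left out (0.22). Atf3, an early repressor and target of ATF4, stood at 41.1, 13.4, 14.2 and 10.4 against 12.1, 12.5, 9.43 and 9.48 CPM. Its rise of 0.84 (SD 0.76, adjusted p = 7.23e-09) came from replicate 1, and without that library it was 0.27 (adjusted p = 0.596). Cebpb (0.04, adjusted p = 0.794) and Jdp2 (0.18, adjusted p = 0.354) did not pass.

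Genes of serine, one-carbon, proline and glycine synthesis made up the next group, with 9 of 14 higher and 0 lower (list median 0.63). Mthfd2 (chromosome 6, 83305691 to 83325908, − strand), the mitochondrial folate enzyme, stood at 71.6, 90.8, 71.5 and 98.6 CPM in the ISR-high and 34.5, 37.8, 38.3 and 44.9 CPM in the ISR-low cells (1.09, SD 0.15, adjusted p = 5.23e-54). Psph, the last enzyme of serine synthesis, stood at 46.5, 69.1, 56.6 and 60.8 against 25.5, 30.7, 30.3 and 34.3 CPM (0.94, SD 0.15, adjusted p = 4e-30), though it overlaps Cct6a on the opposite strand. Both genes were higher in all 4 libraries without overlap of the sets. Phgdh, the first enzyme of the same path, stood at 270, 324, 291 and 346 against 180, 213, 220 and 255 CPM (0.51, SD 0.10, adjusted p = 7.48e-32). Pck2, the mitochondrial form of phosphoenolpyruvate carboxykinase, stood at 71.2, 66.0, 69.7 and 67.5 against 41.3, 42.8, 39.5 and 44.8 CPM (0.71, SD 0.11, adjusted p = 2.41e-20). By the 4-gene score Psat1 (0.37) of the same path and Shmt2 (0.55), which turns serine to glycine, were also called. After thinning to 5000 UMIs Phgdh (0.30) and Psph (0.59) kept the call, and Psat1 (0.21) and Shmt2 (−0.01) lost it. Of the 14 genes 3 were then higher. With a score of Ddit3 alone Phgdh (−0.39) and Psat1 (−0.30) were called lower, and Psph (0.07) and Shmt2 (−0.15) were not called. The proline synthesis enzymes Pycr1 (0.94) and Aldh18a1 (0.89), also rose, and Aldh1l2, a mitochondrial folate dehydrogenase, had the largest fold of the group at a low level, 7.27, 8.01, 3.73 and 3.71 against 1.04, 1.61, 1.14 and 1.62 CPM (2.05, SD 0.61, adjusted p = 3.48e-10). Mthfd1l (0.33), Got1 (0.06), Cth (0.51) and Cbs (1.92, under 3 CPM in every library) were among those that did not pass.

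Amino acid transporters were higher for 6 of 10 genes and lower for 0 (median 0.35), with 2 higher by DESeq2 and 7 by limma voom. Slc7a5, the light chain of the large neutral amino acid exchanger, stood at 10.5, 21.7, 14.2 and 16.7 against 5.87, 3.94, 6.57 and 7.13 CPM (1.41, SD 0.68, adjusted p = 7.01e-18). Its heavy chain Slc3a2 stood at 192, 196, 191 and 183 against 147, 142, 152 and 152 CPM (0.36, SD 0.09, adjusted p = 3.34e-12). The fold of the light chain was the larger, and neither gene's sets overlapped. Slc7a11, the cystine importer, was called (1.04, adjusted p = 0.0221) at 1.09, 4.20, 8.57 and 2.22 against 1.71, 1.05, 3.29 and 1.62 CPM. It was lower in replicate 1 and lost the call without replicate 2 or without replicate 3. Slc7a1 (0.33), Slc1a4 (0.27) and Slc38a2 (0.23) were called by smaller folds, and each lost its call without 1 library or another.

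Cytosolic aminoacyl-tRNA synthetases, which charge tRNAs with their amino acids, were higher for 10 of 20 genes and lower for 0 (median 0.29). Alanyl-tRNA synthetase Aars stood at 89.0, 116, 100 and 103 against 59.8, 71.6, 68.7 and 71.6 CPM (0.59, SD 0.07, adjusted p = 1.81e-19). Iars (0.55), Nars (0.53), Sars (0.50), Tars (0.46) and Gars (0.43) moved by similar amounts in 4 of 4 libraries each. After thinning to 5000 UMIs 3 of the 20 were higher, Nars (0.28), Sars (0.31) and Tars (0.35). Aars (0.26), Iars (0.33) and Gars (0.14) then lost the call. Mars rose by 0.53, but it shares its 3′ end with the score gene Ddit3 on the other strand. Lars (0.15, adjusted p = 0.116), Wars (0.32, adjusted p = 0.117) and Vars (0.12, adjusted p = 0.377) did not pass. Of the other ATF4 targets 4 of 10 were higher (2 by DESeq2), namely Eif4ebp1, an inhibitor of cap-dependent translation (0.46), the tRNA exporter Xpot (0.47, lost without replicate 4), the lipoprotein receptor Vldlr (0.40) and Sesn2, which restrains mTORC1 (0.26, lost without replicate 1, 2 or 3). Gdf15, a secreted stress factor, was at −0.02 (adjusted p = 0.921).

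Messages of the sensing step were mostly not called. Of 18 genes for eIF2 kinases, eIF2 subunits and regulators 2 were higher and 0 lower (median −0.02), Ppp1r15a, the phosphatase subunit that reverses eIF2 phosphorylation (0.35, lost without replicate 1 or 2), and the subunit Eif2s2 (0.29). The kinases were at −0.11 (Eif2ak1), −0.02 (Eif2ak2), −0.69 (Eif2ak3, adjusted p = 0.148) and −0.02 (Eif2ak4), with no call. Kinase activity is not read by mRNA levels.

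**Figure D2:**
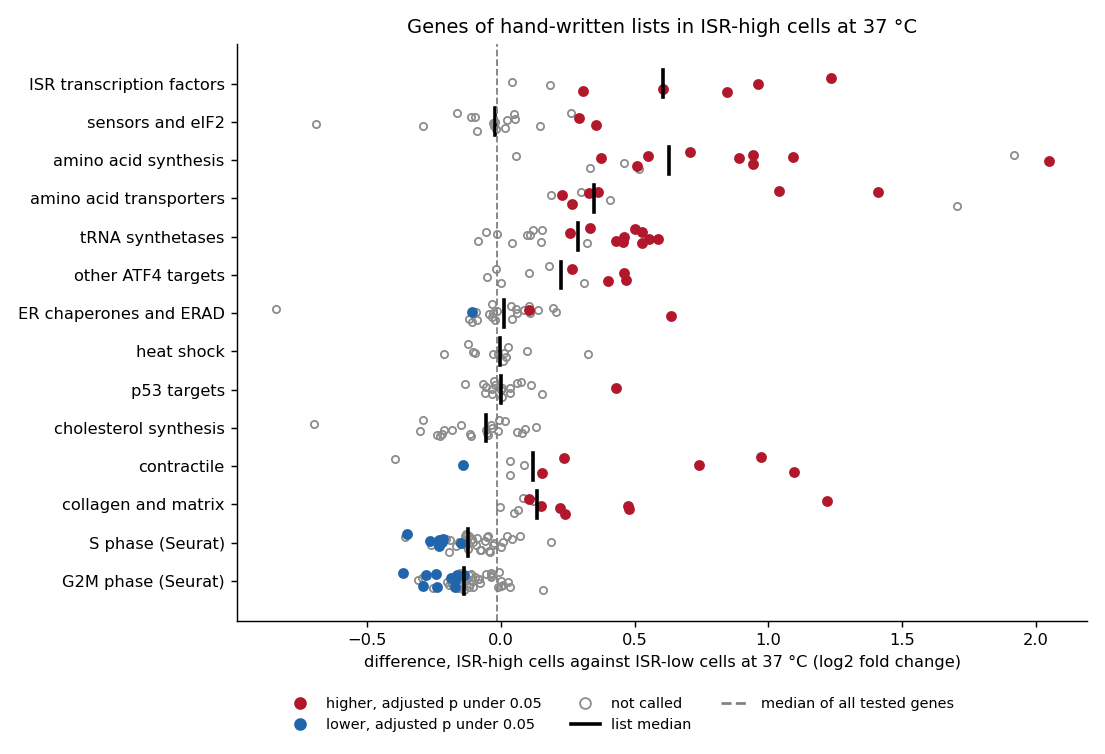
Log2 fold change of each tested gene of 14 lists between ISR-high and ISR-low cells at 37 °C, filled where the adjusted p was under 0.05, with the list median as a bar and the median of all genes as a dashed line. Filled points of the ISR lists lie to the right of the line, and those of the 2 cell cycle lists lie to its left.

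The CARE core was also read against these calls. Of the 36 higher ISR genes 30 had a promoter window, and 12 of these genes (40%) held the letters in any of their windows. Of the ISR genes that were tested and not called, 3 of 28 (10.7%) did. The 3.97% of all windows is a share per window and not per gene, so it is not a like background. The 43 genes not called include 16 eIF2 kinases, subunits and regulators, which were not listed as ATF4 targets, so the groups differ in how they were chosen, and no test was run. The sequences below are of the genes described above, with the match in capitals on the gene's strand.
Atf3, chr1:191183415-191183464, − strand, match 110 bases before the start: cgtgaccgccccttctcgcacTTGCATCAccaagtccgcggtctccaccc
Nupr1, chr7:126625552-126625601, − strand, match 110 bases before the start: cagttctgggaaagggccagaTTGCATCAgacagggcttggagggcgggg
Pck2, chr14:55540142-55540191, + strand, match 103 bases before the start: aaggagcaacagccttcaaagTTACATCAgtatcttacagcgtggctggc
Pycr1, chr11:120643823-120643872, − strand, match 103 bases before the start: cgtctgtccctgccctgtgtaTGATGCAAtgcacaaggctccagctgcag
Slc7a11, chr3:50443641-50443690, − strand, matches 66 and 47 bases before the start: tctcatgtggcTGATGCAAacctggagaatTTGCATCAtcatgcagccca
The ER stress response element (ERSE), read by ATF6 and XBP1, was in 0.119% of all windows and in no window of the 30 and 28 ISR genes.

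By the 4-gene score other stress programmes moved little at 37 °C. Several of these lists changed direction with the genes used in the score, as given below. Of 24 ER chaperone and ER-associated degradation genes 2 were higher and 1, the disulfide isomerase Pdia3, lower (median 0.01). Herpud1, a membrane protein of ER-associated degradation that ATF4 also drives, stood at 52.7, 79.7, 71.5 and 59.7 against 42.5, 42.9, 42.7 and 41.0 CPM (0.64, SD 0.25, adjusted p = 4.95e-16). The main ER chaperone Hspa5 was at 0.10 (adjusted p = 0.0426), lower in replicate 1 and without a call when replicate 3 or 4 was left out. By edgeR, limma voom and DESeq2 the heat shock list had 0 of 12 called in either direction (3 at an unadjusted p under 0.05 by edgeR) and cholesterol synthesis 0 of 23 (8 at an unadjusted p under 0.05). Of 10 mitochondrial chaperones and proteases 1 was higher, the mitochondrial HSP70 Hspa9 (0.31, adjusted p = 5.51e-10). Of 15 NRF2 targets Hmox1, the heme oxygenase, rose in 4 of 4 libraries (0.53, SD 0.20, adjusted p = 7.14e-13), and Sqstm1 (0.13) was called as well. Of 18 p53 targets 1 was higher, the BH3-only death gene Pmaip1 (0.43, lost without replicate 1), which is also the 1 higher of 14 genes of the BCL2 family and death receptors. The p53 targets Cdkn1a (−0.03, adjusted p = 0.76) and Mdm2 (−0.03, adjusted p = 0.727) did not pass. Glycolysis and hypoxia genes had 1 of 17 higher (Ndrg1, 0.20), autophagy and lysosome genes 1 of 16 (Ctsl, 0.21), interferon response genes 1 of 10 (Ifit3, 0.81) and immediate early genes 2 of 12 (Dusp1, 0.22, and Egr1, 0.18). Of these small changes, those of Pdia3, Sqstm1, Ndrg1, Ctsl, Dusp1 and Egr1 each did not pass without 1 library or another.

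Contractile and matrix genes stood out among the remaining rises. Acta2, smooth muscle actin, stood at 305, 408, 295 and 452 CPM in the ISR-high and 186, 175, 176 and 200 CPM in the ISR-low cells (0.97, SD 0.27, adjusted p = 4.9e-123). Tagln, an actin-binding protein of the same programme, stood at 174, 202, 141 and 143 against 67.9, 84.1, 65.2 and 91.5 CPM (1.10, SD 0.32, adjusted p = 1.87e-91). Neither gene's sets overlapped, and Tagln was narrowest in replicate 4. Of the 10 contractile genes 5 were higher, with Myl9 (0.74), Tpm2 (0.23) and Actn1 (0.15) the others, and Vcl was lower (−0.14). Collagen and matrix genes had 7 of 12 higher, led by Col6a2 (1.22, at 4.20 to 7.41 against 2.21 to 3.21 CPM), Col6a1 (0.48) and Col3a1 (0.48), with Col1a1 at 0.24. Col3a1 lost its call without replicate 1 or 2 and Col6a1 without replicate 4. By DESeq2, after thinning and with no replicate block, 5, 2 and 1 matrix genes and 5, 2 and 3 contractile genes were higher. With a score of Ddit3 alone 3 contractile genes were higher and 5 lower, and 3 matrix genes were higher and 1 lower. With the score without Ddit3 these counts were 9 and 0, and 6 and 0. Igfbp7, a secreted IGF-binding protein, stood at 152, 169, 139 and 152 against 97.2, 103, 95.4 and 97.0 CPM (0.64, SD 0.07, adjusted p = 2.79e-31). The histone gene Hist1h2bc rose by 0.63 (SD 0.39, adjusted p = 1.3e-13), but its sets overlapped (60.7, 72.1, 55.1 and 38.9 against 31.6, 38.8, 40.0 and 36.1 CPM) and histone genes share near-identical sequence. The immune marker Cd68, a lysosomal protein, was also called (0.46), although Ptprc was at 0, and lost its call without replicate 2 or 3. Of the progenitor markers Nes was called (0.12), a call lost without replicate 2 or 4, and 0 of 3 tested neuronal and 0 of 3 tested glial markers passed in edgeR, limma voom or DESeq2, with 0 at an unadjusted p under 0.05.

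The falls were smaller than the rises. Sfrp1, a secreted inhibitor of WNT signalling, stood at 73.1, 46.5, 64.8 and 52.6 CPM in the ISR-high and 90.2, 84.0, 84.7 and 91.0 CPM in the ISR-low cells (−0.56, SD 0.28, adjusted p = 1.78e-14). Kctd12, a partner of GABA-B receptors, stood at 77.4, 74.0, 66.3 and 72.6 against 112, 120, 99.2 and 97.2 CPM (−0.56, SD 0.11, adjusted p = 9.99e-17). Nrp2, a receptor for semaphorins and VEGF, stood at 214, 192, 177 and 173 against 295, 256, 260 and 260 CPM (−0.50, SD 0.08, adjusted p = 3.71e-27). None of the 3 overlapped between the sets. Krt19, a keratin (−0.44), and Cenpf, a kinetochore protein (−0.37), followed, then Fgfrl1 (−0.39), the cyclin Ccnb1 (−0.33), the homeobox gene Irx5 (−0.33), the WNT ligand Wnt6 (−0.32) and Flrt2 (−0.31), whose calls were lost when the fit ignored the library block (adjusted p = 0.0746 to 0.106). Without replicate 2 Wnt6 lost its call as well (−0.29).

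**Figure D3:**
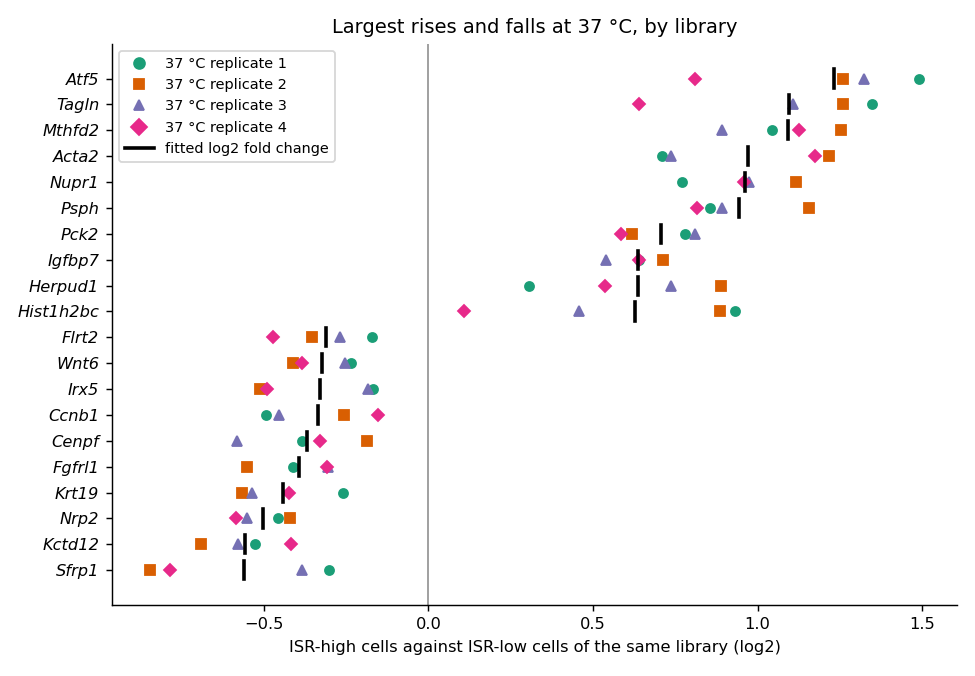
Log2 difference between ISR-high and ISR-low cells of the same 37 °C library for the 10 largest rises and 10 largest falls, with 1 point per library and the fitted log2 fold change as a bar. Points of all 4 libraries lie on the same side of 0 for each gene, as the rule for naming them requires, and spread most for Sfrp1, Atf5, Tagln and Hist1h2bc.

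The share of cells in G1 was higher and the share in S phase lower in the ISR-high cells of every 37 °C library, in a design where 4 libraries cannot give a p under 0.125. Phases were assigned with Seurat's gene lists after thinning each cell to 5000 UMIs. The G1 share was 34.4, 36.9, 31.8 and 23.8% in the ISR-high and 29.4, 24.9, 21.5 and 20.4% in the ISR-low cells, a mean of 31.7% ± 5.69 against 24.0% ± 4.07 (SD, n = 4), higher in 4 of 4 libraries (two-sided exact sign-flip permutation p = 0.125, adjusted p = 0.25 over 6 measures). Without thinning it was 30.8% against 23.9%. The S share was lower in 4 of 4, at 34.9% ± 4.32 against 42.3% ± 2.54 (exact permutation p = 0.125), and the G2M share was 33.4% against 33.6%. Of Seurat's S list 7 of 42 genes were lower and 0 higher (median −0.12), and of its G2M list 10 of 52 were lower and 0 higher (median −0.14), Cenpf among them. The S list had 1, 3, 5 and 10 lower without replicate 1, 2, 3 or 4, 0 by DESeq2 and 5 by limma voom, and the G2M list 8, 10, 6 and 10, 5 by DESeq2 and 9 by limma voom. The median number of UMIs per cell was 12751 ± 1963 against 12921 ± 2991, higher in 2 of 4 libraries. The mitochondrial share was 7.35% ± 0.14 against 7.71% ± 0.163 and lower in 4 of 4 (exact permutation p = 0.125), and 10 of 13 genes of the mitochondrial genome were lower. Of 96 tested genes named Rpl or Rps plus a digit 5 were lower and 0 higher (median −0.03). This name pattern also takes in S6 kinase genes such as Rps6ka3, but the 5 called were ribosomal protein genes. The count of lower genes was 0, 12, 0 and 1 without replicate 1, 2, 3 or 4, 0 by DESeq2 and 11 by limma voom. With ISR-high cells chosen within each phase 36 of the 79 ISR genes were higher and 0 lower, and chosen within 5 strata of UMIs per cell 37 and 0.

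The ISR-high cells can be divided by which score genes were detected in them. The split below was chosen after the data were seen, its cells differ in depth, and it is a description with no test. In 174 cells Ddit3 was the only score gene detected (54, 30, 36 and 54 per library), in 466 it came with others, and in 148 it was absent (35, 32, 25 and 56). Cells with Ddit3 alone had a median of 8637 ± 798 UMIs (SD, n = 4 libraries), those with Ddit3 and others 14578 ± 2424 and those without Ddit3 13636 ± 2946, against 12921 ± 2991 in the ISR-low cells. Their mitochondrial shares were 8.07, 7.25, 7.14 and 7.71% in that order. A shallow cell passes the limit with fewer score UMIs, so depth and the number of score genes cannot be told apart here.

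Genes of amino acid synthesis were low in the cells with Ddit3 alone and high in the others. Over 13 genes their summed level was 271, 347, 395 and 513 CPM in the cells with Ddit3 alone, 831, 900, 864 and 969 with Ddit3 and others, 917, 1023, 998 and 1020 without Ddit3, and 483, 554, 550 and 612 in the ISR-low cells. In each library the cells with Ddit3 alone were below the ISR-low cells and the other kinds were above them. Not all ISR lists did so. Amino acid transporters stood at 514 ± 32.3, 459 ± 10.3, 437 ± 75.8 and 362 ± 5.92 CPM in that order, highest with Ddit3 alone. ISR transcription factors stood at 581 ± 65.6 with Ddit3 alone and 454 ± 20.4 in the ISR-low cells. Synthetases stood at 1461 ± 70.7 and 1617 ± 52.3, and the 6 ISR lists together at 4742 ± 198 and 4739 ± 126. Phgdh stood at 113 ± 45.2, 334 ± 31.7, 388 ± 23.7 and 216 ± 32.5 CPM in the same order of sets, and Mthfd2 at 24.7 ± 10.5, 91.1 ± 13.8, 107 ± 14.5 and 38.7 ± 4.63. Between the cells without Ddit3 and those with Ddit3 alone, 1411 of 10793 genes (13.1%) were higher in all 4 libraries and 1986 (18.4%) lower. Of the amino acid synthesis genes 9 of 13 were higher and 0 lower, and of the synthetases 12 of 20 and 0. Atf4 was above its ISR-low mean in all 3 kinds (141 ± 6.91, 187 ± 16.9, 197 ± 52.1 and 118 ± 10.9 CPM), and Herpud1 likewise (65.2 ± 15.5, 66.2 ± 10.8, 67.7 ± 14.9 and 42.1 ± 0.873).

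The p53 targets ran the other way. Their summed level was 8020, 7455, 7928 and 7052 CPM in the cells with Ddit3 alone, 5801, 5204, 5613 and 5067 with Ddit3 and others, 5118, 3543, 4579 and 5179 without Ddit3, and 5735, 5277, 5551 and 5803 in the ISR-low cells. In every library the cells with Ddit3 alone were highest. Mdm2, the p53 ubiquitin ligase, stood at 986 ± 115, 656 ± 99.2, 459 ± 103 and 679 ± 30.3 CPM, and 14 of 18 targets were lower in all 4 libraries in the cells without Ddit3 than in those with Ddit3 alone. So were 10 of 16 autophagy and lysosome genes, the transporter Slc1a4 (93.3 ± 20.7 CPM with Ddit3 alone, 31.5 ± 4.39 without Ddit3), the keratin Krt7 (94.0 ± 34.0 and 14.7 ± 4.98) and Cd68 (50.3 ± 21.5 and 9.94 ± 3.61). S phase genes followed amino acid synthesis, with 23 of 42 higher and 1 lower, and the S share was 20.9% ± 7.02 with Ddit3 alone, 35.2% ± 4.06 with Ddit3 and others and 48.9% ± 8.14 without Ddit3. Nes (234 ± 109 and 672 ± 112 CPM) and Stmn2, a regulator of microtubules (43.8 ± 21.2 and 163 ± 33.4), were also higher without Ddit3. Their lists did not move as a whole. Of 4 progenitor markers 1 was higher and 2 lower in all 4 libraries, and of 3 neuronal markers 1 and 0.

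**Figure D4:**
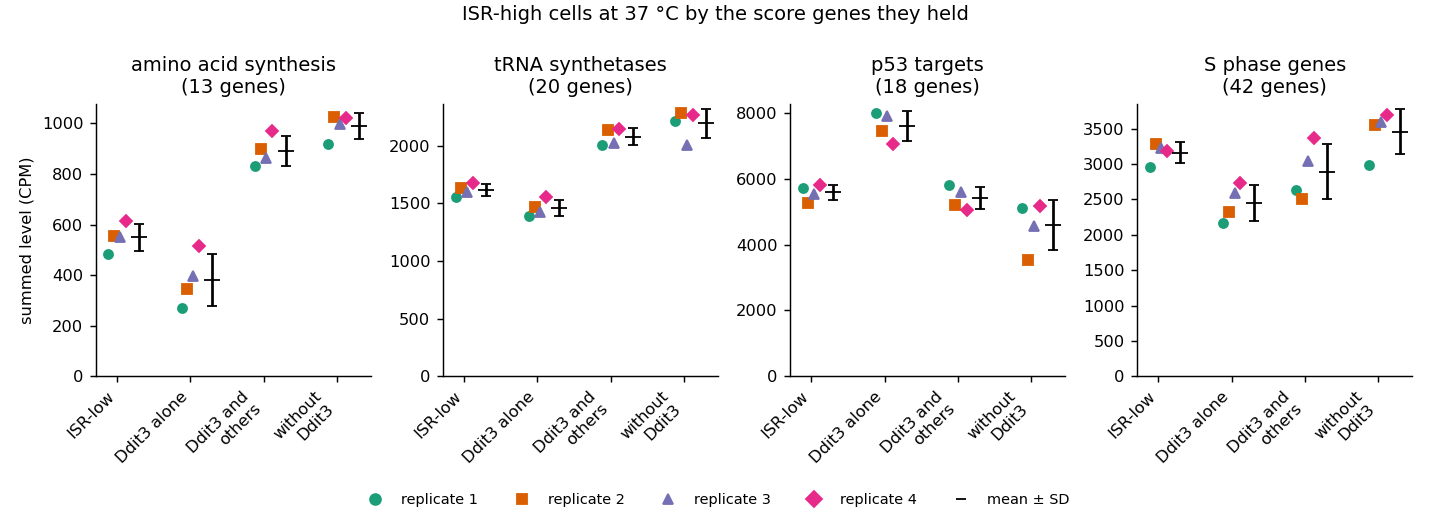
Summed level, in CPM, of 4 gene lists in the ISR-low cells and in ISR-high cells with Ddit3 alone, with Ddit3 and others, and without Ddit3, with 1 point per 37 °C library and the mean ± SD. Amino acid synthesis and tRNA synthetase levels are lowest and p53 target levels highest in the cells with Ddit3 alone.

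The calls moved with the score that chose the cells. With a score of Ddit3 alone 16 of the 79 ISR genes were higher and 16 lower, and with a score of Trib3, Chac1 and Asns 48 were higher and 5 lower. Of the 788 ISR-high cells, 121, 82, 97 and 120 per library were also in the top 10% by Ddit3 alone, and 116, 94, 90 and 124 in the top 10% by the other 3. Median UMIs per cell moved with this choice, from 9504 against 11090 (high against low, replicate 1) by Ddit3 alone to 13103 against 10279 by the other 3 genes. Of the 87 called genes chosen for naming, 23 changed sign with the score of Ddit3 alone, and 10 of these were called in the other direction. Among these 10 were Phgdh (from 0.51 to −0.39), Psat1 (−0.30), Eprs (−0.24), Iars (−0.23), Tars (−0.20), Eif2s2 (−0.13), Hspa5 (−0.39) and Nes (−0.70). Mthfd2 went from 1.09 to −0.05 with no call. With the score without Ddit3 27 changed sign and 12 were called in the other direction, among them Hmox1 (from 0.53 to −0.32), Slc1a4 (−0.45), Cd68 (−0.66), Krt7 (−0.74), Egr1 (−0.45), Hist1h2bc (−0.27) and Ctsl (−0.13). Igfbp7 went from 0.64 to −0.13 and Ifit3 from 0.81 to −0.40, neither with a call. Whole lists turned as well. Of the S list 36 genes were lower and 0 higher with Ddit3 alone and 19 higher and 0 lower without it. Of the genes named Rpl or Rps plus a digit 71 were lower and 0 higher against 72 higher and 0 lower. In the same order, ER chaperone and degradation genes went from 1 higher and 12 lower to 14 and 0. The p53 targets went from 12 and 1 to 1 and 13, and heat shock genes from 0 and 5 to 5 and 0. Cholesterol synthesis went from 0 and 11 to 8 and 0, and glycolysis and hypoxia from 1 and 8 to 9 and 0. Autophagy and lysosome genes went from 9 and 0 to 0 and 8. The NRF2 targets did not turn (3 and 5, then 2 and 3). The directions given above for these genes and lists therefore hold for the 4-gene score.

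The same rule at 39 °C gave 813 cells in which most ISR genes did not follow the score. There 989 of 13781 genes (7.18%) were higher and 1120 (8.13%) lower, and 9 of 78 ISR genes were higher and 3 lower, with a median of 0.00. Of 13 tested amino acid synthesis genes 0 were called in either direction at 39 °C by edgeR, limma voom or DESeq2, with 3 at an unadjusted p under 0.05 by edgeR. Chosen cells at 39 °C had fewer UMIs (9153 ± 3601 against 11450 ± 4051, lower in 4 of 4, exact permutation p = 0.125), a higher mitochondrial share (8.52% against 8.19%, higher in 4 of 4) and a G1 share of 88.3% against 83.1%, and 8 of 18 p53 targets and 7 of 16 autophagy and lysosome genes were higher with 0 lower. The cells chosen at the temperatures also differed in the gene that chose them. Ddit3 gave 83.6, 86.6, 87.5 and 84.5% of the score UMIs of the chosen cells at 39 °C, against 51.5, 42.9, 50.2 and 44.0% at 37 °C. It was the only score gene detected in 50.5, 64.3, 64.7 and 66.9% of them, against 24.8, 18.75, 21.2 and 22.5%. Neither the part of depth nor that of the score's makeup in this contrast was tested.

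The difference between temperatures was fitted over all 16 sums. Of 13923 genes 396 (2.84%) had a larger log2 difference at 39 °C and 371 (2.66%) a smaller one. Of the 79 ISR genes 25 had a smaller one and 0 a larger one (median −0.24), 9 of them among 14 amino acid synthesis genes and 9 among 20 synthetases. With cells chosen at both temperatures by Ddit3 alone 2 had a smaller and 1 a larger one (median 0.01), by the score without Ddit3 27 and 3, and after thinning every cell to 5000 UMIs 4 and 0. The values that follow are for the 4-gene score. Nupr1 rose by 0.96 at 37 °C and was at −0.07 at 39 °C (29.4 against 30.4 CPM), a difference of −1.02 (adjusted p = 9.9e-12, edgeR). Psph was at 0.94 and 0.00 (difference −0.92, adjusted p = 7.35e-06), and Atf5 rose at both temperatures, by 1.23 and 0.53 (difference −0.69, adjusted p = 9.69e-05). Atf4 also rose at both, by 0.60 and 0.20 (difference −0.39, adjusted p = 1.99e-04). Hmox1 rose at both with the larger fold at 39 °C (0.53 and 0.83, difference 0.32, adjusted p = 0.0148, which did not pass without 37 °C replicate 4 or without 39 °C replicate 1 or 3). Outside the lists, Stmn2 was at 0.00 at 37 °C and fell by 1.17 at 39 °C (difference −1.15, adjusted p = 1.64e-15), the RAS-like gene Rasl11a was at −0.25 and 0.87 (difference 1.14, adjusted p = 8.53e-08) and Sprr1a, a protein of the cornified envelope, at 0.47 and −0.53 (difference −0.99, adjusted p = 7.69e-05).

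**Figure D5:**
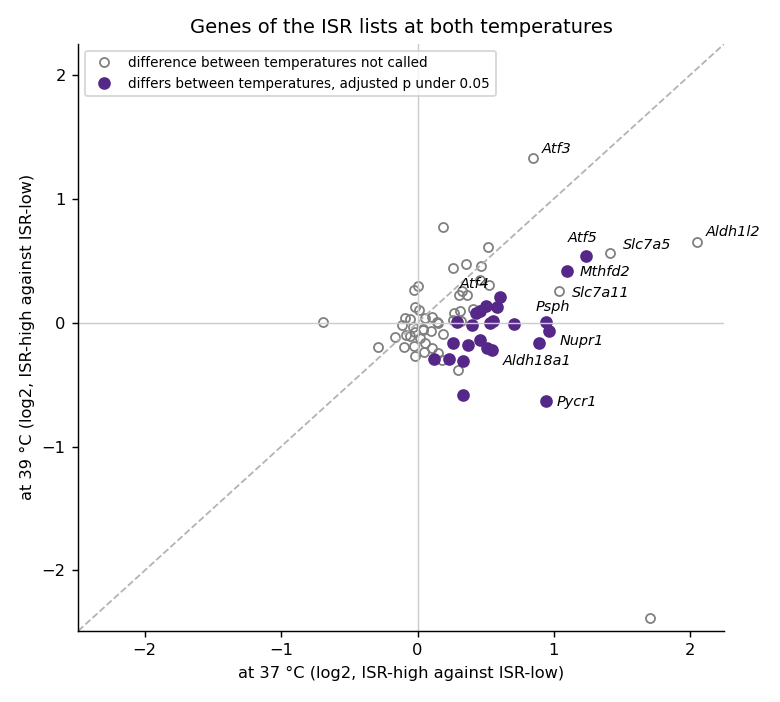
Log2 fold change of each gene of the 6 ISR lists between ISR-high and ISR-low cells at 37 °C (x axis) and at 39 °C (y axis), filled where the difference between temperatures had an adjusted p under 0.05. The filled points lie below the dashed line of equal change.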

How the data were processed

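Per the labels and the study's methods, the authors prepared 3′ libraries with the Chromium V3 kit. The submitters' processing notes name Cell Ranger 3.0.1 and the genome build mm10 (the same assembly as GRCm38). The deposited matrices hold UMI counts per gene and cell as whole numbers, not normalized. Gene positions came from GENCODE M21 (144 of 144 genes looked up were found) and promoter windows from RefSeq.

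Cells with 200 to 6000 genes, at least 5000 UMIs and at most 15% of UMIs from mitochondrial genes were kept. No doublet caller was run, so the upper limit on genes was the guard against doublets. Since cells are not replicates, UMIs were summed per library and set, the score genes were left out, and genes averaging 1 count or more per sum were tested with edgeR 4.0.16 (R 4.3.3) using TMM factors, glmQLFit and glmQLFTest with the library as a block, so that both sets of a library are paired by construction. Calls needed a Benjamini-Hochberg adjusted p under 0.05. The difference between temperatures was the interaction term over both temperatures. edgeR's estimated prior degrees of freedom were infinite at each temperature, which assumes a common spread, so the SD of the 4 libraries' log2 differences is given beside fold changes and limma 3.58.1 (voom) was added as an alternative after seeing the data, as were the scores with and without Ddit3. CPM of tested genes use TMM-scaled totals, and those of score genes and of the split of the ISR-high cells use plain totals. Library differences use a pseudocount of 0.5 CPM. Phases were assigned with Seurat 5.3.0 on cells thinned to 5000 UMIs (42 of 43 S and 52 of 54 G2M genes found). Median UMIs and genes, mitochondrial shares and phase shares were compared by exact sign-flip permutation over 4 libraries. The edgeR fit was tested on simulated data.

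The cells, lists and tests were chosen with earlier results of these data known. Named genes were the 10 largest called rises and 10 largest called falls with at least 50 CPM in the higher set and 1 direction in 4 of 4 libraries, members of the ISR lists, up to 4 called members of each other list, and up to 5 called interactions of at least 50 CPM. Actn1 and Vcl, the members that complete the contractile counts, were named after their values were seen, as were the genes of the split. The alternatives were other scalings, filters and thresholds, DESeq2 1.42.0, no block, other shares of cells, thinning, selection within phases or depth, and leaving out each library.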

Additional observations from a re-analysis of the deposited data

Results flagged for a closer look

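Of 42 genes named by size, by the ISR lists or by this difference, 25 had a difference between ISR-high and ISR-low cells that differed between 39 °C and 37 °C by the interaction term (edgeR, adjusted p under 0.05). Kif20a, Rasl11a, Sprr1a, Stmn2 and Nupr1 are 5 that were named for it, so the count is a description. Values are log2 differences at 39 °C minus those at 37 °C. Among ISR genes they were −0.69 for Atf5, −1.02 for Nupr1, −0.39 for Atf4, −0.66 for Mthfd2, −0.92 for Psph, −0.71 for Pck2, −1.56 for Pycr1, −0.45 for Aars, −0.52 for Iars, −0.52 for Nars, −0.36 for Eif4ebp1, −0.41 for Vldlr, −0.27 for Eif2s2 and −0.47 for Herpud1. Each of these 14 was smaller at 39 °C, but all were named through a called rise at 37 °C, a choice that favours this direction. Of all 13923 genes 371 (2.66%) had a smaller difference at 39 °C and 396 (2.84%) a larger one. Calls that leaving out 1 library ended were those of Mthfd2 (without 37 °C replicate 2 or 4, or 39 °C replicate 2 or 3), Pycr1 (without 39 °C replicate 3), Iars (without 39 °C replicate 2) and Vldlr (without 37 °C replicate 2 or 3, or 39 °C replicate 2).

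Outside the ISR the values were −0.64 for Acta2, −0.45 for Igfbp7, −0.39 for Hist1h2bc, −0.46 for Cenpf, 0.69 for Ccnb1, 0.31 for Irx5, −0.45 for Flrt2, −1.16 for Kif20a, −1.15 for Stmn2, 1.14 for Rasl11a and −0.99 for Sprr1a. Of these, Acta2, Ccnb1, Cenpf, Hist1h2bc, Irx5 and Kif20a lost the call without 1 library or another. The 39 °C libraries differ from those at 37 °C in serum as well as temperature, and their ISR-high cells were shallower than their ISR-low cells. Ddit3 gave 83.6 to 87.5% of the score UMIs of the ISR-high cells at 39 °C and 42.9 to 51.5% at 37 °C. With cells chosen by Ddit3 alone 2 of the 79 ISR genes had a smaller difference at 39 °C and 1 a larger one, against 25 and 0. The parts of depth and of the score's makeup in these differences were not tested. An outlier check of 48 genes and measures, for a library far from the other 3 of its group, flagged 0. With so few libraries per group such a check can miss one, so it does not show that no library drove a result. At 37 °C the rise of Atf3 was 0.84 with all libraries and 0.27, with no call, without replicate 1.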

How the results depend on the processing

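At 37 °C the 228 higher and 241 lower genes became 85 and 41 with DESeq2, 61 and 25 with no replicate block, 36 and 28 with cells thinned to 5000 UMIs and 6 and 1 at an adjusted p under 0.01 with a log2 fold change over 1.5 in size. The lower genes numbered 132 with the filterByExpr filter and 109 with the ISR-low cells thinned to the UMI total of the ISR-high cells. A score of Ddit3 alone gave 1097 and 1752 and a score without Ddit3 gave 1502 and 1390. Leaving out each replicate gave 157 to 187 higher and 125 to 195 lower genes, the lower ones at 125, 147 and 133 without replicate 1, 2 or 3. At 39 °C the 989 higher and 1120 lower genes became 521 and 361 with DESeq2, 325 and 357 with thinned cells, 26 and 9 at the stricter threshold and 53 and 36 with a score without Ddit3, and the lower ones 576 with no replicate block and 570 with the ISR-low cells thinned. Leaving out each replicate gave 709 to 990 lower genes at 39 °C (709 without replicate 2 and 744 without replicate 3). The 767 differences between temperatures became 404 with DESeq2, 190 with no replicate block, 472 with the top 5% of cells, 142 with thinned cells, 492 with the ISR-low cells thinned and 481 with a score of Ddit3 alone, and 553 to 882 without a replicate. Chosen on the other 3 genes, Ddit3 was at 0.13 and Asns at 0.15 with the top 20% of cells, and at 0.19 and 0.20 with thinned cells, with no call. Among the 20 genes named by size, with a score without Ddit3, Flrt2 (0.12), Hist1h2bc (−0.27), Igfbp7 (−0.13) and Krt19 (0.13) reversed, and with a score of Ddit3 alone Irx5 (0.28) and Mthfd2 (−0.051) did. For these 20 genes, 390 settings kept direction and call, 24 lost the call and 6 reversed. The mitochondrial share difference was −0.304 points with the top 20% of cells and −0.294 against all other cells. The score level was 177 CPM when measured in UMIs that did not choose the cells, against 326. The causes of these changes were not tested. In the thinned setting both sets of cells were also chosen again on the thinned counts. With a median of 3 to 5 score UMIs per ISR-high cell, depth limits which cells are chosen.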
